A study of Homo sapiens with 2 samples.

Results

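The expression of 35 genes of cholesterol and fatty acid synthesis was followed in ACHN cells given an shRNA to KIAA1429, a subunit of the complex that writes N6-methyladenosine (m6A) on mRNA. The genes were chosen by name, from SREBP regulators, enzymes of both pathways and sterol traffic genes. All 35 were found among the 12014 protein-coding genes of the files, and each had a mean of at least 1 FPKM (fragments per kilobase of transcript, scaled to the size of the library), so the filter on low values removed 0 of them. ACHN is an established human renal cell carcinoma line. Lentivirus had brought either an shRNA that targets KIAA1429 (shKIAA1429) or a control hairpin (shNC) into the cells, and puromycin had been used to select stable lines. The sample labels call the first a knockout, the methods of the study describe a knockdown, and which of its KIAA1429 hairpins was sequenced is not named in the sources used here. There was 1 library per group, so differences between the libraries could not be set against replicate error and no test was run. The depth of the libraries is unknown, since the files hold FPKM without counts. In such bulk samples, fewer cells of a type and less RNA per cell cannot be told apart.

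Cholesterol is built from acetyl-CoA through mevalonate and squalene, and fatty acids from the same acetyl-CoA through malonyl-CoA. The SREBP transcription factors switch on both pathways. When sterols are scarce, SCAP carries the SREBP precursors from the endoplasmic reticulum to the Golgi, where they are cut and freed to enter the nucleus, and when sterols are plentiful INSIG proteins hold SCAP back. Clear cell renal carcinoma is known for cells filled with stored cholesterol esters and triglycerides.

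The level of KIAA1429, listed as VIRMA, was 3.92 FPKM in the control and 3.22 FPKM in the shKIAA1429 library (82.1%). The reference genes ACTB and GAPDH stood at 84.1% and 80.7% of their control levels, so the files do not show a reduction of KIAA1429 beyond that of these genes. By RT-qPCR and western blot, the study reports lower KIAA1429 mRNA and protein in ACHN cells given its KIAA1429 hairpins. As log2 ratios of FPKM + 1, VIRMA had -0.22, ACTB -0.25 and GAPDH -0.31, all below the median of 0.06 for all genes. Of 10 markers of renal epithelium and renal carcinoma, 9 were listed, and CDH6 was absent. The listed markers differed in both directions. With shNC and shKIAA1429, PAX8 was at 64.7 and 104.4 FPKM, LHX1 at 11.0 and 4.44 FPKM, and VIM at 368 and 228 FPKM. Of 12 markers of blood cells, endothelium and hepatocytes, SERPINA1 alone was listed. The 13 mitochondrial genes took 42.2% of the summed FPKM with shNC and 34.6% with shKIAA1429, and bringing both libraries to a sum of 1000000 moved the median log2 change of all genes up by 0.18, from 0.06 to 0.24. For this reason each change is read below beside the median of all genes.

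SREBP is known to bind sterol regulatory elements together with the CCAAT-binding factor NF-Y. RefSeq promoter windows on GRCh38.p14, from 250 bases before to 50 bases after a gene start, were at hand for 31 of the 35 genes. The core of the sterol regulatory element, searched as TCACNCNAC on both strands, stood in 4 of these 31 genes (12.9%) and in 3.32% of the 9350 listed genes with a window. The sites are shown because they are the members' matches to this core, with the core in capitals, written along the strand of the gene.
SREBF2 (chr22:41832962-41832990, plus strand, core beginning 133 bases before the start): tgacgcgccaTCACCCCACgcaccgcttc
FDPS (chr1:155308716-155308744, plus strand, 140 bases before): tgcgccatgcTCACACGACggccagcagc
HSD17B7 (chr1:162790594-162790622, plus strand, 98 bases before): tcggcctatcTCACCCGACgccgtctccg
FADS2 (chr11:61815973-61816001, plus strand, 220 bases before): cctccagtctTCACACGACgcaggggtcc
The letters CCAAT, the box of NF-Y, were found on either strand in 22 of the 31 genes (71.0%), against 43.2% of the listed genes with a window. The E box CACGTG, which reads the same on both strands, stood in 6 of the 31 genes (19.4%), against 13.0%. None of the 3 motifs has letters that another holds in full. A match is a description of these windows and not evidence of binding.

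Levels in the control library spanned a wide range. SCD, the desaturase that makes oleate from stearate, was the most abundant member at 149 FPKM and held 21.4% of the FPKM summed over the 35 genes. ACLY, which makes cytosolic acetyl-CoA from citrate, followed at 97.7 FPKM, ahead of the elongase ELOVL5 (58.0 FPKM), fatty acid synthase FASN (47.6 FPKM) and the lysosomal cholesterol carrier NPC2 (43.3 FPKM). The lowest were the mevalonate kinase gene MVK at 2.03 FPKM, the cholesterol exporter ABCA1 at 2.22 FPKM and HSD17B7 at 2.24 FPKM. The 8 fatty acid genes held 55.7% of this sum in the control and 50.1% with shKIAA1429, while the 7 genes of the mevalonate arm held 10.3% and 14.5%. The summed FPKM of all 35 genes was 695 with shNC and 569.5 with shKIAA1429, which is 81.9% of control, and 87.0% without SCD. The sum of all listed genes without the mitochondrial ones was 99.7% of control, while ACTB and GAPDH stood at 84.1% and 80.7%.

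**Figure D1:**
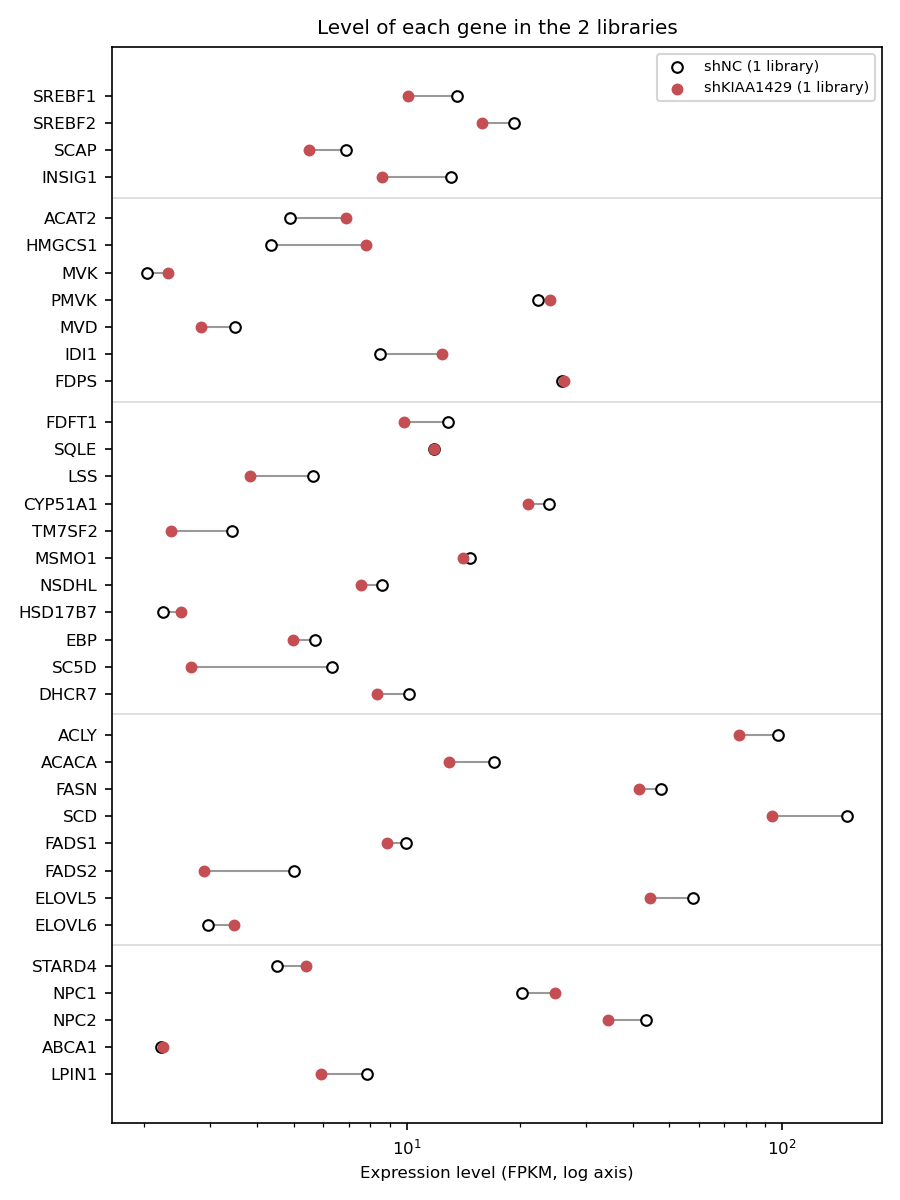
FPKM of each of the 35 genes on a log axis, with open circles for the shNC library and filled circles for the shKIAA1429 library, grouped by role from top to bottom (SREBP regulators, mevalonate arm, sterol arm, fatty acid synthesis, sterol traffic and lipid phosphatase). The grey lines join the 2 libraries, and the widest gaps are those of SC5D, from 6.32 to 2.66 FPKM, and HMGCS1, from 4.36 to 7.80 FPKM.

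The change of each gene was taken as the log2 ratio of FPKM + 1, shKIAA1429 over control. Adding 1 makes the changes of low genes look smaller than they are. The median change of the 35 genes was -0.19, against 0.06 for the 10702 genes with a mean of at least 1 FPKM. Below this median of all genes lay 26 of the 35 members (74.3%). A log2 change above 0.5 was found for 2 members (5.71%), HMGCS1 and IDI1, where 9.9% of all genes lay above this limit. A change below -0.5 was found for 4 members (11.4%), SC5D, SCD, FADS2 and INSIG1, against 6.12% of all genes. The study's limit of 1.5 was passed by 0 members in either direction, with 0.383% of all genes past it upwards and 0.252% downwards. The other 29 members lay within the limit of 0.5.

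**Figure D2:**
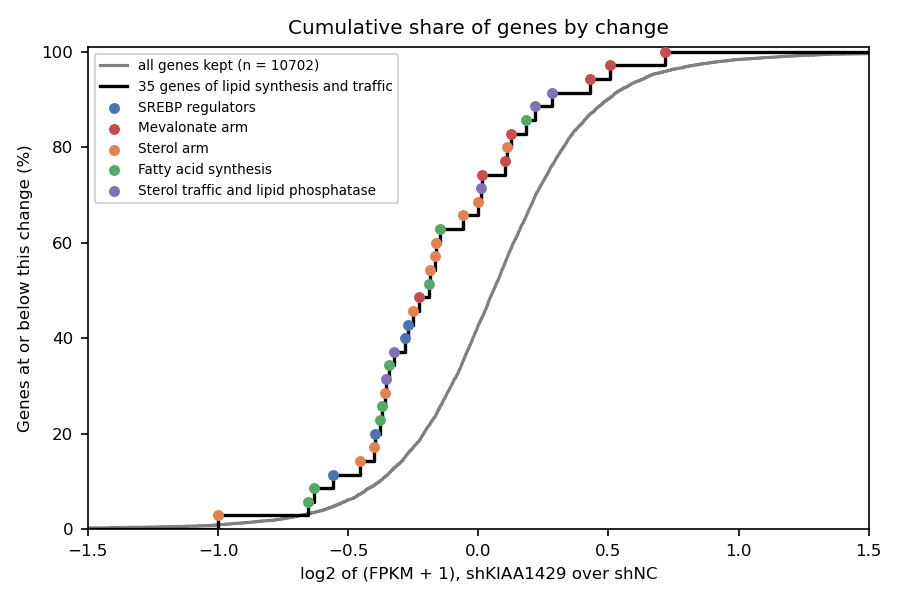
Share of genes (percent) at or below each log2 change for the 10702 genes kept (grey) and for the 35 members (black steps, points coloured by role). The black steps lie to the left of the grey line over most of the range, and ACAT2, IDI1 and HMGCS1 of the mevalonate arm make up the upper end.

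All 4 SREBP regulators were lower in the shKIAA1429 library, where 42.7% of all genes were below 0. Their median change was -0.34, against 0.06 for all genes. INSIG1, which retains SCAP and is itself switched on by SREBP, was at 13.2 FPKM with shNC and at 8.60 FPKM with shKIAA1429 (65.4%), a log2 change of -0.56. The gene, ENSG00000186480.12_3, occupies chr7:155089486-155101945 (GRCh37, plus strand). Of the 535 genes nearest to it in mean FPKM (1 of 20 bins of equal size), 23 had a lower change. SREBF1, the gene of SREBP-1, had 13.6 and 10.1 FPKM, a change of -0.40. SREBF2, which encodes the factor tied most closely to cholesterol genes, had 19.3 and 15.8 FPKM, a change of -0.27. The SCAP gene went from 6.91 to 5.51 FPKM, a change of -0.28. Only INSIG1 among them was past 0.5, and with each library rescaled to a sum of 1000000 it stood at -0.42, within the limit.

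The mevalonate arm, which leads from acetyl-CoA to farnesyl diphosphate, had a median change of 0.13, against 0.06 for all genes. Of its 7 genes 1 was below 0 (14.3%), where 42.7% of all genes were below 0, and 2 were below the median of all genes. Differences between the role groups were not tested. HMGCS1 makes HMG-CoA, the precursor of mevalonate. It was at 4.36 FPKM with shNC and at 7.80 FPKM with shKIAA1429 (179%), a log2 change of 0.72 and the highest of the 35. HMGCS1 (ENSG00000112972.14_3) occupies chr5:43289497-43313614 (GRCh37, minus strand), and 19 of the 535 genes of its bin had a higher change. IDI1, the isomerase that makes dimethylallyl diphosphate, was at 8.47 and 12.4 FPKM (147%), a change of 0.504 that only just passed the limit and was 0.45 after centring on the all-gene median. Its identifier is ENSG00000067064.10_3, at chr10:1085848-1095110 (GRCh37, minus strand), and 56 genes of its bin had a higher change. ACAT2, the thiolase of the opening step, had 4.87 and 6.91 FPKM, a change of 0.43. Its neighbours on the other strand, TCP1 and SOD2, had changes of 0.41 and 0.79. Whether the authors' counting kept the strands apart is not given in the sources used here. The remaining steps showed smaller values. The kinase genes MVK and PMVK had changes of 0.13 and 0.10, the synthase gene FDPS 0.01, and MVD, the decarboxylase, was at 3.49 and 2.84 FPKM, a change of -0.23. FDPS has 8 named pseudogenes in GENCODE 29, and whether reads were shared with these copies was not tested.

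The CCAAT boxes of HMGCS1 and IDI1 are shown beside those of 3 genes below -0.5, to compare genes of both directions, with 1 site before the start given for each gene. FADS2, the remaining gene below -0.5, also held the letters in its window. The capitals mark the box, which reads ATTGG where it lies on the opposite strand.
HMGCS1 (chr5:43313498-43313522, minus strand, 100 bases before the start): accggccgcgATTGGctgtgggagc
IDI1 (chr10:1048959-1048983, minus strand, 87 bases before): ggcgcgagcgATTGGctgcgcggcc
INSIG1 (chr7:155297698-155297722, plus strand, 170 bases before): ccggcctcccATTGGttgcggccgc
SC5D (chr11:121292705-121292729, plus strand, 56 bases before): ccggtcgctgATTGGctggccgctc
SCD (chr10:100347037-100347061, plus strand, 186 bases before): ttcccttcggCCAATgacgagccgg
The box was present in genes that were higher and in genes that were lower with shKIAA1429. As 22 of the 31 genes held it, this says little on the direction of change. An E box was held by INSIG1 and SC5D, both lower, and also by SCAP, LSS, ELOVL5 and ABCA1. These others had changes of -0.28, -0.46, -0.38 and 0.01, in this order. A link between the E box and the change was not tested. The E boxes of INSIG1 and SC5D are shown.
INSIG1 (chr7:155297813-155297838, plus strand, 55 bases before the start): cgggcaggctCACGTGatgcgggccc
SC5D (chr11:121292630-121292655, plus strand, 131 bases before): gcgcggcgccCACGTGaccgcggaga

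From squalene onwards the values lay mostly below 0. Of the 11 genes of the sterol arm 9 were below 0 (81.8%, against 42.7% of all genes), and 10 were below the median of all genes, with a median change of -0.18. SC5D, the desaturase that acts near the end of the pathway, had the largest change of the 35 genes. It was at 6.32 FPKM with shNC and at 2.66 FPKM with shKIAA1429 (42.1%), a log2 change of -1.0. SC5D (ENSG00000109929.9_2) occupies chr11:121163162-121179403 (GRCh37, plus strand) and shares this stretch with 0 listed genes on either strand. Of the 535 genes of its bin, 1 had a lower change. Across the settings that kept SC5D its value stayed between -1.24 and -1.0, and a mean of at least 5 FPKM left it out. LSS, which closes squalene epoxide into lanosterol, went from 5.61 to 3.82 FPKM, a change of -0.46. TM7SF2, a sterol reductase, went from 3.43 to 2.35 FPKM, a change of -0.40. FDFT1, the squalene synthase at the branch towards sterols, had 12.9 and 9.84 FPKM, a change of -0.36. DHCR7, the reductase that yields cholesterol, had 10.1 and 8.34 FPKM, a change of -0.25.

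The other sterol enzymes differed less between the libraries. CYP51A1, the lanosterol demethylase, was at 24.0 and 21.0 FPKM, a change of -0.18. NSDHL and EBP, a dehydrogenase and an isomerase of the later steps, had changes of -0.17 and -0.16. The sterol oxidase gene MSMO1 was at 14.7 and 14.1 FPKM, a change of -0.06. SQLE, the squalene epoxidase and a known point of control, had 11.8 FPKM in both libraries. HSD17B7 was the only gene of this arm above the median of all genes, with 2.24 and 2.50 FPKM. HSD17B7 has 2 named pseudogenes in GENCODE 29 and CYP51A1 has 3, and whether reads were shared with these copies was not tested. At a sum of 1000000 the median of the sterol arm was -0.01, with 8 of 11 genes below 0.

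**Figure D3:**
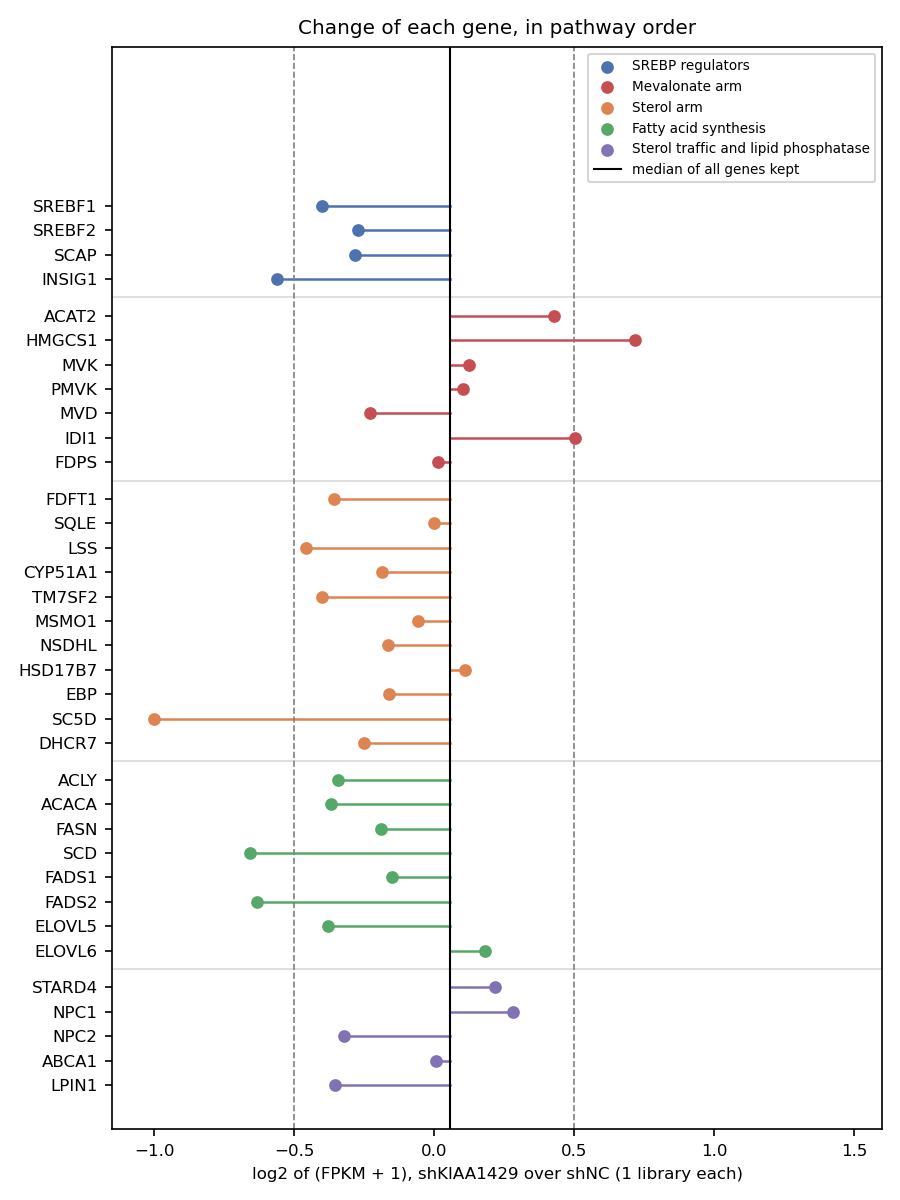
Log2 change of FPKM + 1, shKIAA1429 over shNC, for each of the 35 genes in the order of the pathways, with lines drawn from the median of all genes (black, 0.06) and dashed lines at the limits of -0.5 and 0.5. ACAT2, HMGCS1 and IDI1 point to the right, while the SREBP regulators and most genes after squalene and of fatty acid synthesis point to the left.

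The fatty acid genes were lower as a group, with a median change of -0.36. Of the 8 genes 7 were below 0 (87.5%, against 42.7% of all genes), or 6 at a sum of 1000000. SCD differed most in FPKM, with 149 FPKM in the control and 94.1 FPKM with shKIAA1429 (63.2%), a log2 change of -0.66. SCD (ENSG00000099194.5_2) occupies chr10:102106881-102124591 (GRCh37, plus strand). Of the 536 genes of its bin, which is the most abundant one and had a median of -0.06, 16 had a lower change. With each library at a sum of 1000000 its change was -0.48, within the limit. It has 1 named pseudogene. FADS2, the first desaturase of polyunsaturated fatty acids, was at 5.01 and 2.88 FPKM (57.5%), a change of -0.63, with 22 of 535 genes of its bin lower.

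FADS2 (ENSG00000134824.13_3) occupies chr11:61560452-61634826 (GRCh37, plus strand), a stretch that also holds FEN1, a DNA replication gene on the same strand. FEN1 had 8.74 FPKM with shNC and 12.8 FPKM with shKIAA1429, a change of 0.51, and the sum of both genes had a change of 0.18. How reads were divided between FADS2 and FEN1 was not tested. FADS1, the partner desaturase, lies within the same stretch on the minus strand and had 9.95 and 8.88 FPKM, a change of -0.15. Of the 35 members, 3 overlap a listed gene on the same strand, the others being LSS and TM7SF2, whose sums with AP001468.1 and VPS51 had changes of -0.44 and -0.27. On the opposite strand, SREBF1, MVK, NPC1 and NPC2 also overlap a listed gene, and ISCA2, which overlaps NPC2, had a change of -0.62.

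The central enzymes of fatty acid synthesis all had lower values with shKIAA1429, within the limit of 0.5. ACACA, which makes malonyl-CoA, had 17.1 and 13.0 FPKM, a change of -0.37. ACLY had 97.7 and 76.9 FPKM, a change of -0.34. FASN had 47.6 and 41.6 FPKM, a change of -0.19 that moved to -0.01 at a sum of 1000000. The elongase ELOVL5 was at 58.0 and 44.4 FPKM, a change of -0.38. ELOVL6, which lengthens palmitate, was the member of this group above 0, with 2.95 and 3.48 FPKM and a change of 0.18. Without SCD the summed FPKM of the group was 238 with shNC and 191 with shKIAA1429, which is 80.2% of control, so the lower sum did not rest on SCD alone.

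Genes that move or use lipids lay on both sides of 0, with a median change of 0.01. NPC1, the membrane protein that releases cholesterol from lysosomes, was at 20.2 and 24.8 FPKM, a change of 0.28. NPC2, which hands cholesterol to NPC1, had 43.3 and 34.4 FPKM, a change of -0.32, so that these partners differed in direction. STARD4, a cytosolic cholesterol carrier, had 4.50 and 5.39 FPKM, a change of 0.22. ABCA1 was at 2.22 and 2.24 FPKM. LPIN1, the phosphatidate phosphatase that feeds triglyceride synthesis, had 7.81 and 5.90 FPKM, a change of -0.35.

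**Figure D4:**
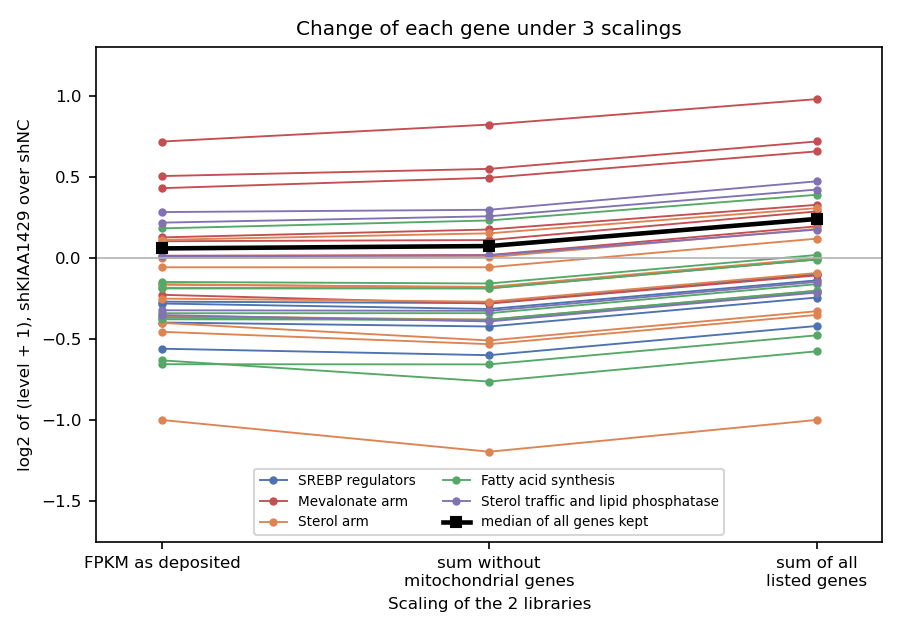
Log2 change of each of the 35 genes (thin lines coloured by role) and the median of all genes kept (thick black line) with FPKM as deposited, with each library rescaled to 1000000 without the mitochondrial genes, and with each rescaled to 1000000 over all listed genes. The last scaling lifts the median of all genes from 0.06 to 0.24 and most members with it, so it says little on where the members lie against that median.

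Related gene lists were chosen with earlier results of these data known. Of all genes, 9.9% lay above 0.5 and 6.12% below -0.5. Among 22 genes of SREBP processing and turnover the median change was 0.01 and 1 gene was below -0.5. This was TMEM97, a sterol-responsive membrane protein, with 17.3 FPKM with shNC and 9.33 FPKM with shKIAA1429 (54.0%), a change of -0.82. Among the 10 listed genes of LXR signaling and cholesterol efflux the median was -0.13, and 1 gene was past -0.5. LPCAT3, an enzyme that remodels phospholipids, had 12.2 and 8.30 FPKM, a change of -0.504 just past the limit. Among 15 genes of the isoprenoid branches, which draw on the mevalonate arm, 0 passed 0.5 in either direction and the median was 0.11. Sterol storage and traffic genes likewise had 0 of 16 past the limit, with a median of 0.04.

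Among 20 other genes of fatty acid synthesis and activation, 3 were above 0.5 and 1 below, with a median of -0.07. ACSS2, which makes acetyl-CoA from acetate, had 8.32 and 5.19 FPKM (62.4%), a change of -0.59. ACSL4, which activates polyunsaturated fatty acids, had 12.9 and 22.1 FPKM (171.5%), a change of 0.73. ELOVL1 and OXSM had changes of 0.53 and 0.60. Of 16 genes of triglycerides and lipid droplets, 2 were above 0.5. MGLL, the monoglyceride lipase, had 9.54 and 16.6 FPKM, a change of 0.74, and HILPDA, a lipid droplet protein induced by hypoxia, had 0.912 and 2.07 FPKM, a change of 0.68. Of 19 genes of fatty acid oxidation 14 were below 0, where 42.7% of all genes were, with a median of -0.10. SLC25A20, the carnitine carrier of mitochondria, was past the limit at 5.22 and 3.00 FPKM, a change of -0.64. Below the median of all genes lay 15 of these 19, beside 26 of the 35 members. The same held for 13 of the 20 other fatty acid synthesis genes, 10 of 16 triglyceride genes and 7 of 10 LXR genes. It held for 12 of 22 SREBP processing genes, 8 of 16 storage genes and 6 of 15 isoprenoid genes.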

How the data were processed

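Poly(A) RNA of ACHN cells was sequenced in strand-marked libraries, 1 with shKIAA1429 and 1 with shNC, and samples were grouped by the treatment label. The authors deposited FPKM per gene. The submitters' processing notes name cutadapt 1.9, HISAT2 2.0.4, StringTie 1.3.4d, DESeq2 and edgeR, without their roles, and the build is not given in the sources used here (gene positions are those of GRCh37). The files hold protein-coding genes above 0.5 FPKM in at least 1 library. From the deposited FPKM the log2 ratio with a pseudocount of 1 was computed for genes with a mean of at least 1 FPKM. Of the repeated rows of 7 symbols, that of highest mean FPKM was kept. No test was run. The limit of 0.5 serves as a description, beside the 1.5 of the study. All members were named, and of other lists the genes past 0.5 (at most 5 each). Members, lists and limits were chosen with earlier results of these data known. One symbol of the storage list (ORP1L) is an alias and matched no row. Transcripts came from GENCODE 29 (99.5% of genes matched) and promoter windows from RefSeq, whose strand was checked against transcript starts. The steps were tested on simulated data with planted log2 changes of 1.5 up or down, which does not cover changes near 0.5. Python 3.11.15, NumPy 2.4.6, pandas 2.3.3 and matplotlib 3.10.9 were used. Alternatives were other pseudocounts, scalings, filters and limits, leaving out overlapping genes, and removal of a GC content and length trend.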

Additional observations from a re-analysis of the deposited data

How the results depend on the processing

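With 1 library per group and unknown depth, neither replicate nor counting error can be given. No paired analysis was possible because each group holds 1 library. The 26 of 35 members below the median of all genes became 27 with trends of GC content and transcript length taken out, 20 of 25 with a mean of at least 5 FPKM and 23 of 32 without overlapping genes. Rescaling moves the members and this median together, so it bears little on the count. This count and the trend setting were chosen after seeing the data.

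Against 2 members higher and 4 lower past 0.5, a limit of 1 left 0 and 0 (1.61% and 0.897% of all genes). SC5D, at -0.9997, only just missed this limit. It was past it with a pseudocount of 0.1 (-1.22), centred (-1.06), without mitochondrial genes (-1.20) and with the trend removed (-1.24). At a sum of 1000000 over all listed genes it was at -0.9995. A limit of 0.25 gave 4 higher and 16 lower (27.1% and 17.2% of all genes). At the limit of 0.5, centring left 1 higher, since IDI1 went to 0.45 (7.64% of all genes were higher). A sum of 1000000 gave 3 higher, with ACAT2 added, and left 2 lower, SC5D and FADS2, where 23.9% of all genes were above and 4.59% below the limit. A pseudocount of 0.1, and a sum of 1000000 without mitochondrial genes, each gave 6 lower, with LSS and TM7SF2 added. In these settings 8.73% and 8.39% of all genes were below -0.5, in this order. The centred changes gave 5 lower, with LSS added (7.69% of all genes). The trend setting gave 5 lower, with ELOVL5 added (5.205% of all genes), and 2 higher, ACAT2 and HMGCS1 (8.64%). With overlapping genes left out 3 were lower (5.68% of all genes). A mean of at least 5 FPKM left 2, INSIG1 and SCD, as fewer genes were kept (5.945% of all genes). At a sum of 1000000 the medians were -0.010 for all members, -0.19 for SREBP regulators, 0.33 for the mevalonate arm, -0.010 for the sterol arm, -0.18 for fatty acid synthesis and 0.17 for traffic genes, by construction of the shift of all genes. With a mean of at least 5 FPKM the mevalonate arm had 0.43 and traffic genes -0.32. Centring put traffic genes at -0.050. With the trend removed the mevalonate arm had 0.27 and traffic genes -0.063, and IDI1 was at 0.38; the cause was not tested. Of 267 values of single members under the alternatives, 255 stayed on their side of 0.5, 8 moved past it and 4 moved within it. Of those past 0.5, 0 changed sign. Among members within 0.5, 3 changed sign when centred, 2 at a sum of 1000000 and 1 with the trend removed. Part of the 255 could not move, since settings that only choose which genes are kept leave a member's own value as it was. These settings were no filter (35 members), a mean of at least 5 FPKM (25 members) and no overlapping genes (32 members).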

Other observations

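KIAA1429 is known to guide m6A to sites near the stop codon and in the 3′ UTR, often within the letters GGACT. In 1 coding transcript per gene from GENCODE 29, GGACT stood in the 3′ UTR of 19 of the 35 members (54.3%) and of 58.3% of the 10644 genes with a transcript. Of the 4 members below -0.5, SC5D and SCD held 2 each there and INSIG1 and FADS2 held 0. Of the members above 0.5, HMGCS1 and IDI1 held 1 each. LSS and ACACA held the most, with 4 each, and had changes of -0.46 and -0.37. The letters were counted only, and m6A was not measured in these files.

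The members had a median transcript length of 3210 bases and a GC content of 50.2%, against 3112 bases and 48.8% for all genes. Of the 35 members, 25 lay below the median of the bin of genes nearest to them in mean FPKM.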
